A study of Mus musculus with 6 samples.

Results

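The 54 genes described here are the well expressed long intergenic noncoding RNA (lincRNA) genes of the series, that is, genes of the GENCODE M21 type lincRNA with 1000 or more reads summed over the 6 libraries. Genes on chromosomes X and Y, the Snhg hosts of small nucleolar RNAs, and Gas5, Zfas1, H19, Meg3, Rian and Mirg were left out by the rule, which reduced 62 genes to 54. The deposited table held 18951 genes, of which 1299 were lincRNA genes. The genes were chosen by their total number of reads over both groups and not by the difference between the groups, so differences could be tested where both groups were well read. In 16 genes the lower group had 100 reads or fewer. These passed through the other group and had to differ, so their values are given as a description, without SE or p. A milder form of this touches other genes too: in 28 genes, the 16 included, the total would have been under 1000 had both groups been at the level of the lower one. Beyond the 16 these are Trp53cor1, Lockd, Epb41l4aos, 2900076A07Rik, C030037D09Rik, Gm10076, Gm20186, 2010320M18Rik, Gm43597, Gm5113, Gm20342 and BC002059. Where an SE or p is given for them below, it does not allow for this choice, and the value is a description. Just inside the threshold lay 2900076A07Rik with 1044 reads, BC002059 with 1074 and Gm20342 with 1087. Just outside it lay 9330158H04Rik with 988 reads and Gm14230 and Gm26722 with 963 each.

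The series asked how silencing of Rbm22 changes the transcriptome of neonatal mouse cardiomyocytes. The protein that Rbm22 encodes sits near the catalytic centre of the spliceosome, the complex that removes introns. All 6 libraries were labelled as C57BL/6 cardiomyocytes in primary culture, isolated from hearts of C57BL/6J mice aged 1 day and used when cardiac troponin T staining gave a purity above 97.5%. The 3 si-Control cultures received a scramble siRNA and the 3 si-Rbm22 cultures an siRNA against Rbm22, and RNA was taken 48 h later. The 3 samples per group are called biological replicates in the labels, which leave unsaid whether each had its own isolation. The p-values therefore reflect only how far these samples differ, which may be technical. How many hearts were pooled, and whether poly(A) RNA was selected or ribosomal RNA removed, is not given in the sources used here.

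LincRNAs are transcripts from between the protein-coding genes that are made by RNA polymerase II and are usually spliced and polyadenylated, but do not code for a long protein. Some act as nuclear scaffolds, as Neat1 does in paraspeckles and Malat1 in nuclear speckles. Others host microRNAs or small nucleolar RNAs, bind microRNAs, or mark the act of transcription next to a coding gene. In heart and muscle they are known as microRNA hosts, such as linc-MD1 at the miR-206 and miR-133b locus, and as transcripts that change after injury, such as Mirt1 (myocardial infarction associated transcript 1).

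The small RNAs lying on the same strand inside these genes are shown first, because they tell apart the hosts whose levels are described further on. The mature sequences are those of RefSeq (GRCm38.p6), 5′ to 3′, with the seed (bases 2 to 8) in capitals. Gm28653 (chr1:20669882-20684298, plus strand) spans the hairpins of miR-206 and miR-133b, the muscle microRNA pair, which have different seeds.
miR-206-3p: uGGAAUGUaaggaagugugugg
miR-133b-3p: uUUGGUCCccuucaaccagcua
6720427I07Rik (chr13:48532905-48546500, minus strand) spans let-7a-1, let-7f-1 and let-7d, whose 5p arms share 1 seed and belong to the let-7 family of growth-restraining microRNAs.
let-7a-5p: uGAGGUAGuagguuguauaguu
let-7f-5p: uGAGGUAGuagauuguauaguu
let-7d-5p: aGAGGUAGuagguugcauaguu
Gm37233 (chr1:34427002-34433264, minus strand) spans miR-5103, and 2900076A07Rik (chr7:81523550-81531498, plus strand) spans miR-1839.
miR-5103: uCAUCCGGgauccccugagg
miR-1839-5p: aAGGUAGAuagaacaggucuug
Gm26532 (chr8:84208920-84209609, plus strand) is not a host in this annotation. It begins within the last 2 bases of the 107-base miR-24-2 hairpin.

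Facts of the libraries that touch every result are given before the results. Counted reads per library lay between 34269042 and 37344860. Rbm22 itself had 798, 916 and 774 reads in si-Control and 533, 466 and 491 in si-Rbm22, without overlap, and its mRNA fell by 0.78 on the log2 scale (SE 0.097, edgeR adjusted p = 4.22e-06). What the si-Control libraries held went against their label. The summed level of 12 cardiomyocyte markers was 47.2 to 54.5 CPM (reads per 1000000 of the scaled library total) in them and 26303 to 40654 CPM in si-Rbm22, and 6 of the 12, among them Myl2, Myl7 and Nppa, had no read in si-Control. Skeletal muscle precursor markers (7 genes) summed to 552 to 562 CPM in si-Control and 0.133 to 0.556 CPM in si-Rbm22, with Myf5, Myod1 and Cdh15 at 0 reads there, while 7 fibroblast markers summed to 21392 to 23232 against 5609 to 5781 CPM (5 fell, 2 rose, and Tcf21 had no read in si-Control) and 6 endothelial markers to 1.61 to 1.93 against 229 to 275 CPM. These libraries are the whole comparison group, so no result could be given without them, and the siRNA cannot be told apart from the difference in cell content. In such bulk samples fewer cells of a type and less RNA per cell cannot be told apart either.

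Most of the 54 genes differed between the groups, as most genes of the table did. With edgeR's quasi-likelihood test at an adjusted p under 0.05, 19 rose in si-Rbm22, 29 fell and 6 did not pass. Over all 14621 tested genes 82% were called, 43.1% higher and 38.9% lower, so the number called among these genes is near the background. The counts are a description, since they include the 16 genes that had to differ. Among the other 38 genes 15 rose, 17 fell and 6 did not pass. Among protein-coding genes 43.6% were higher and 38.7% lower. Among all 387 tested lincRNA genes 76.2% were called, 33.9% higher and 42.4% lower. The groups did not overlap for 48 of the 54 genes, beside 84.2% of all tested genes. The median log2 fold change (si-Rbm22 over si-Control) was -0.59 over the 54 genes, -0.18 over the tested lincRNA genes and 0.05 over all tested genes. Changes of at least 2-fold among the called were seen in 9 of the 54 genes that rose and 21 that fell, beside 24.4% and 18.7% of all tested genes. These counts include all 16 genes that had to differ, of which 4 rose and 12 fell. They therefore cannot be set against the shares of all tested genes.

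**Figure D1:**
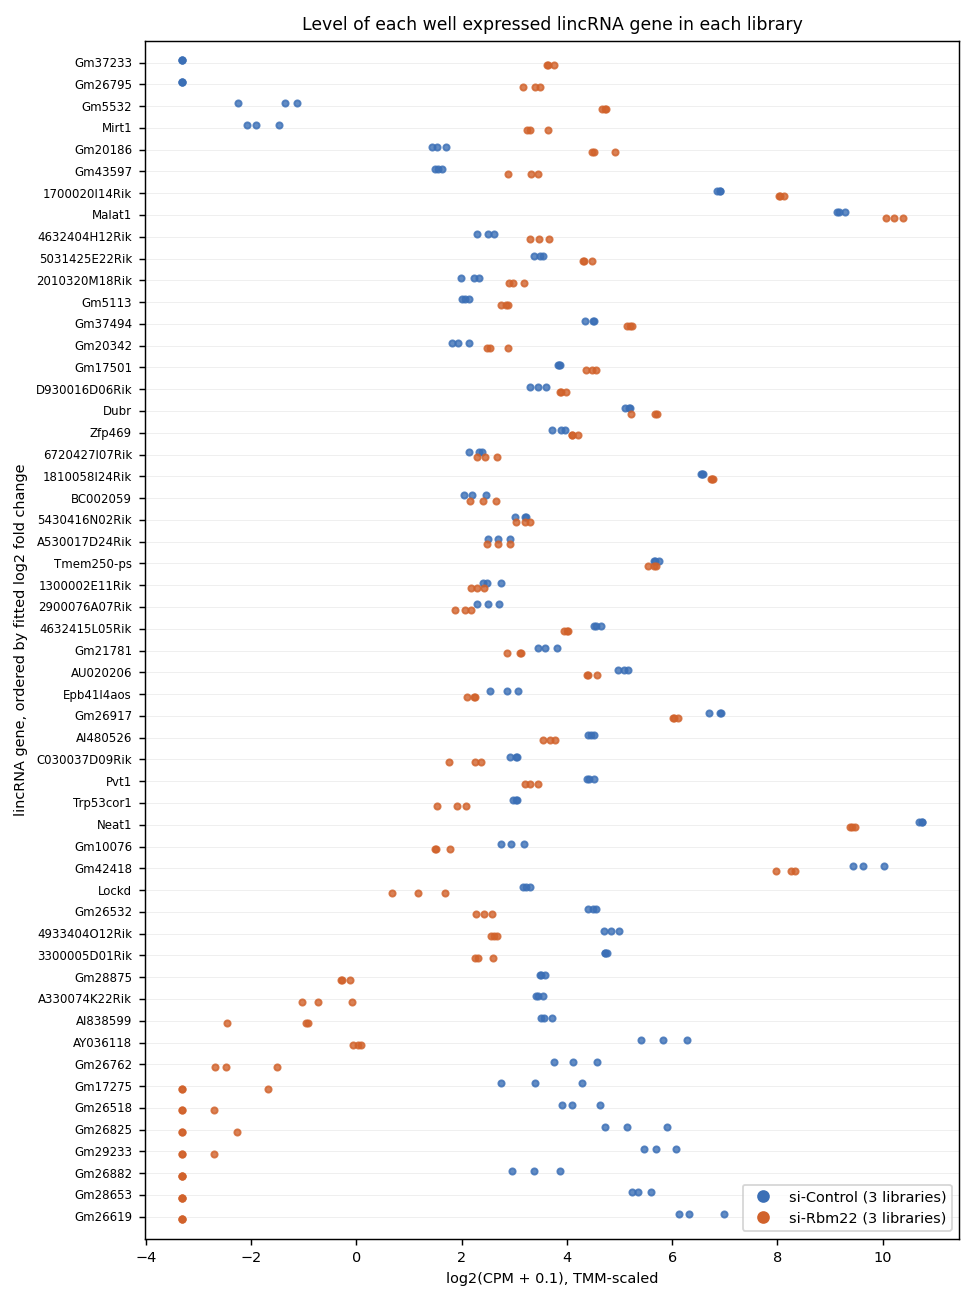
Level of each of the 54 lincRNA genes in each library, as log2 of TMM-scaled CPM plus 0.1, with 1 point per library (blue, 3 si-Control libraries; orange, 3 si-Rbm22 libraries) and genes ordered by fitted log2 fold change. Points at the far left are libraries without a read; the 6 genes in the middle whose colours mix are those that did not pass the test.

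A few genes held most of the reads. All 54 together took 0.412%, 0.451% and 0.437% of the counted reads in si-Control and 0.322%, 0.292% and 0.303% in si-Rbm22. The mean share was 0.433% ± 0.0198 against 0.306% ± 0.0152 (SD, n = 3 each), and the groups did not overlap. Neat1 alone took 0.172% ± 0.0035 in si-Control and 0.0679% ± 0.00324 in si-Rbm22, and without Neat1 the difference between the groups shrank from -0.128 to -0.0238 percentage points. The 49 genes other than Neat1, Malat1 and 3 ribosomal RNA-like genes took 0.0996% ± 0.0067 and 0.0839% ± 0.00125. These shares are a description and were not tested.

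**Figure D2:**
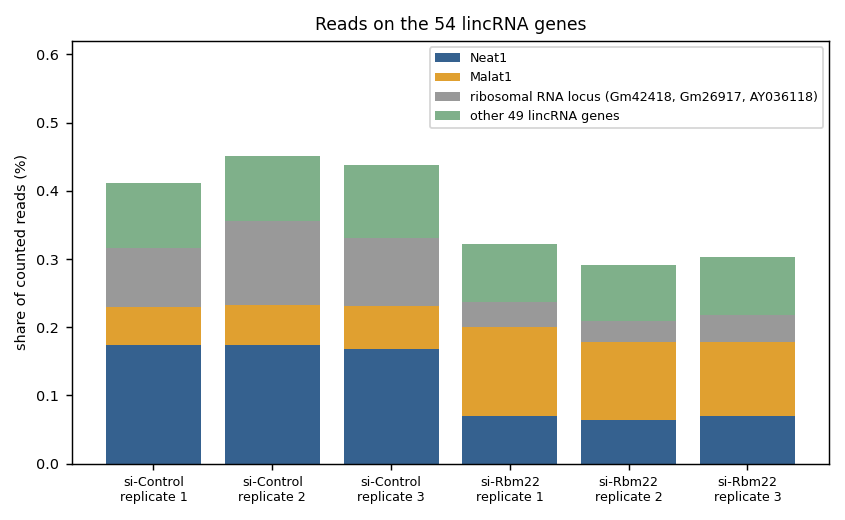
Share of all counted reads (%) that fell on the 54 lincRNA genes in each library, stacked for Neat1, Malat1, the 3 genes of the ribosomal RNA-like locus and the other 49 genes. The bars are taller in the 3 si-Control libraries (0.412% to 0.451%) than in the 3 si-Rbm22 libraries (0.292% to 0.322%), while the Malat1 segment is taller in si-Rbm22.

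The nuclear scaffold RNAs Neat1 and Malat1 moved in opposite directions. They are neighbours on the minus strand of chromosome 19 (Neat1, ENSMUSG00000092274, chr19:5824708-5845478; Malat1, ENSMUSG00000092341, chr19:5795690-5802672), and the longest transcript of each is unspliced. Neat1, the architectural RNA of paraspeckles, had 62378, 62649 and 57529 reads in si-Control and 25927, 23805 and 25808 in si-Rbm22. Every si-Control library lay above every si-Rbm22 library, and the level went from 1702 ± 38.4 to 685.5 ± 23.3 CPM (SD, n = 3 each). Neat1 fell by 1.31 on the log2 scale (SE 0.056, edgeR adjusted p = 3.6e-11). Malat1, an abundant RNA of nuclear speckles, the stores of splicing factors, had 20194, 20831 and 21713 reads in si-Control and 48772, 42534 and 40146 in si-Rbm22. Here every si-Rbm22 library was the higher, with 585.6 ± 35.6 against 1194 ± 132 CPM and a log2 fold change of 1.03 (SE 0.079, edgeR adjusted p = 4.49e-08). The ratio of Malat1 to Neat1 reads within a library was therefore 0.324, 0.333 and 0.377 in si-Control and 1.88, 1.79 and 1.56 in si-Rbm22. Per kilobase of exon the level of the 2 genes was close in si-Control, 81.9 CPM for Neat1 and 83.9 for Malat1, and apart in si-Rbm22, 33 and 171 CPM. The length used was that of the exons of all transcripts joined, 20771 bases for Neat1 and 6983 for Malat1. Each gene has 4 annotated transcripts, which the counts do not tell apart, so these values are not levels of a transcript. Of the coding genes beside them, Frmd8, which ends 4224 bp before Neat1 begins, had a log2 fold change of -0.10 that did not pass (edgeR adjusted p = 0.165).

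Of a list of 31 nuclear and housekeeping lincRNAs, 17 were tested, of which 5 rose and 8 fell (median -0.22 on the log2 scale). Some of these, such as 0610012G03Rik, which rose, and Crnde, which fell, are not of the GENCODE type lincRNA. The list held 9 of the 54 genes. Its largest member after Neat1 and Malat1 was 1700020I14Rik, known as Cyrano and named Oip5os1 by RefSeq, a conserved RNA that pairs with the microRNA miR-7 and leads to its destruction.

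Cyrano rose. It had 4171, 4339 and 4146 reads in si-Control and 10192, 9575 and 9750 in si-Rbm22, without overlap, and its level went from 118 ± 2.56 to 268 ± 9.46 CPM (SD, n = 3 each). The rise was 1.18 on the log2 scale (SE 0.055, edgeR adjusted p = 9.72e-11). The sequence for which it is known was found in its 8300-base transcript (GENCODE M21; gene at chr2:119594297-119607502, plus strand). The site of 25 bases carries a match of 8 bases to the 5′ end of miR-7, which starts at base 2952, after a block of 13 bases that pairs with the 3′ part of the microRNA. Both blocks are in capitals in the site, and the seed is in capitals in the microRNA.
Cyrano site: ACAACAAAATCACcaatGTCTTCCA
miR-7a-5p: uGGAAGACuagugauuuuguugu
A match of the same 8 bases at base 762 had no such second block. Mature microRNAs were not measured by these libraries.

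The list also held 3 lincRNAs that lie beside regulators of growth. All 3 fell, while of the coding genes beside them 1 fell, 1 rose and 1 did not pass. Pvt1 (chr15:62037986-62378096), the neighbour of the oncogene Myc, had 770, 823 and 722 reads in si-Control and 333, 352 and 407 in si-Rbm22. It fell without overlap by 1.12 on the log2 scale (SE 0.10, edgeR adjusted p = 1.69e-07), while Myc had a log2 fold change of -0.11 that did not pass (edgeR adjusted p = 0.138). Trp53cor1 (lincRNA-p21, chr17:29057430-29079179), which p53 induces, lies upstream of the cell cycle inhibitor gene Cdkn1a, their starts 11797 bp apart. It had 298, 294 and 271 reads in si-Control and 151, 131 and 104 in si-Rbm22 and fell by 1.20 (SE 0.18), whereas Cdkn1a rose by 0.36 (SE 0.058, edgeR adjusted p = 5.02e-05). Since 44.1% of its exonic bases lie opposite another gene, the value of Trp53cor1 is uncertain. Lockd (chr6:134929092-134956798), which begins 3579 bp downstream of Cdkn1b, the gene of the inhibitor p27, had 352, 335 and 309 against 79, 54 and 116 reads. Both fell, Lockd by 2.04 (SE 0.22) and Cdkn1b by 0.58 (SE 0.064). Of a list of 14 p53-linked and stress lincRNAs, 6 were tested, 5 fell and none rose. Over all tested genes 38.9% fell, and over tested lincRNA genes 42.4%. The list shares 5 genes with those described here, and all 5 also stand on the list above. The falls of Neat1, Pvt1, Trp53cor1 and Lockd are thus counted again. The other fall was that of Gm26809, with 32, 37 and 48 reads against 4, 0 and 0 and 28.7% of its exonic bases opposite another gene. The gene of the list that did not pass was 5430416N02Rik (Adapt33), with 289, 330 and 319 reads against 335, 349 and 302 (log2 fold change 0.03, SE 0.13).

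The 3 genes of a ribosomal RNA-like locus on chromosome 17 were lower in si-Rbm22, by different amounts. Gm42418 (chr17:39846958-39848788, plus strand), which RefSeq lists as the ribosomal RNA pseudogene Rn18s-rs5, had 25134, 37810 and 27585 reads in si-Control and 11209, 9002 and 12150 in si-Rbm22. Replicate 2 was the highest of the si-Control libraries, the groups did not overlap, and the gene fell by 1.52 on the log2 scale (SE 0.17, edgeR adjusted p = 0.000107). Its neighbour Gm26917 (chr17:39843013-39846341) had 4325, 4432 and 3611 against 2517, 2314 and 2467 reads and fell by 0.80 (SE 0.068). AY036118 (chr17:39847113-39848035) lies on the minus strand, and all of its exonic bases are opposite Gm42418. It had 1528, 2048 and 2711 reads in si-Control and 35, 33 and 32 in si-Rbm22. It passed the threshold through si-Control, and its fitted log2 fold change of -6.01 is a description. As a percentage of the reads on Gm42418 in the same library this was 6.08, 5.42 and 9.83 in si-Control and 0.312, 0.367 and 0.263 in si-Rbm22. These genes share sequence with repeated ribosomal RNA units, and the way the counting treated such reads is not given, so their values are uncertain.

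Of the 10 largest fitted falls, 8 were in genes whose exons lie in part opposite exons of another gene, on the other strand. Gm29233 is 1 of them. Its transcript of 281 bases (GENCODE M21, gene at chr2:118123451-118124047, minus strand) is printed 5′ to 3′, with the 208 bases that lie opposite exons of Thbs1 on the plus strand in capitals.
Gm29233: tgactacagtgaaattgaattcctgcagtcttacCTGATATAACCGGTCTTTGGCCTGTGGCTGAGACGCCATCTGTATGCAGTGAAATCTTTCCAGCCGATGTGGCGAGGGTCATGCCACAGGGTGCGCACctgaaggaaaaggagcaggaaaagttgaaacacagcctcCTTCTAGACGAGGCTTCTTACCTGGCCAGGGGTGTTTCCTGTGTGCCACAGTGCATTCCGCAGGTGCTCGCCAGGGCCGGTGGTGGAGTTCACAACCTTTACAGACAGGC
Thbs1 encodes thrombospondin 1, a secreted matrix protein, and was among the most read genes, with 262181, 254237 and 232718 reads in si-Control and 74992, 70721 and 91680 in si-Rbm22. It fell by 1.70 on the log2 scale (SE 0.079). Gm29233 had 1864, 1597 and 2317 reads in si-Control and 0, 0 and 2 in si-Rbm22. The ratio of their CPM was 2968 (95% counting interval 821 to 24513). As a percentage of Thbs1 reads, Gm29233 had 0.711, 0.628 and 0.996 in si-Control and 0, 0 and 0.00218 in si-Rbm22, so the pair did not change in proportion.

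The other 6 genes of this kind were likewise read almost only in si-Control. They passed the threshold of total reads through that group and had to differ, so their values are a description. Gm26619 (chr13:97751112-97760965) has 50.4% of its exonic bases opposite Gm10260, a copy of the ribosomal protein gene Rps18, and had 2884, 2537 and 4385 reads in si-Control and none in si-Rbm22. It was at least 3376-fold lower there, taking 3 counts over the group as the floor. Gm10260 itself had 16873, 16836 and 17515 reads against 40, 43 and 41, and Rps18 3352, 3045 and 3313 against 11209, 10695 and 10994. Reads of near-identical copies can be assigned to either, so these values are uncertain. Gm26825 has 91.8% of its exonic bases opposite Gm15459, a copy of the chaperone gene Hspa8, and had 1274, 949 and 2067 reads against 0, 0 and 4 (ratio 1102, interval 430 to 4046). Gm26882, 97.5% opposite the chromatin gene Morf4l1, had 374, 277 and 502 reads against none and was at least 397-fold lower. Morf4l1 did not pass the test, with a log2 fold change of 0.11.

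In the remaining genes of the set the opposite part was smaller. Gm17275, 25% opposite the histone gene H3f3a, had 376, 241 and 677 reads in si-Control and 0, 0 and 8 in si-Rbm22 (ratio 166, interval 84.1 to 386). Gm26762, 14% opposite Gpi1 of glycolysis, had 626, 485 and 816 against 2, 9 and 3 (ratio 141, interval 84.1 to 259). Gm26518, 3.94% opposite the RNA-binding protein gene Pcbp2, had 619, 539 and 851 against 0, 0 and 2 (ratio 1032, interval 285 to 8527). The coding genes themselves differed far less: H3f3a fell by 0.32, Gpi1 rose by 0.29 and Pcbp2 fell by 0.93 on the log2 scale. In each of these 6 genes and in Gm29233, replicate 3 was the highest and replicate 2 the lowest of the si-Control libraries.

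Over all tested lincRNA genes the fold change went with the share of exonic bases opposite another gene. Without such bases 108 of 244 rose and 72 fell (median 0.58 on the log2 scale). With 50% or more opposite 2 of 43 rose and 38 fell, with a median of -4.83, and with 95% or more none of 20 rose and 19 fell. Among protein-coding genes the median was 0.10 without overlap (9647 genes) and -5.20 with 95% or more opposite (23 genes, of which 3 rose and 16 fell). Of the 54 genes, 8 have 50% or more of their exonic bases opposite another gene, and 7 of these fell. The exception, Gm20186, rose. It lies 81.4% opposite Gm26809, a lincRNA with 32, 37 and 48 reads in si-Control and 4, 0 and 0 in si-Rbm22. Few reads on the partner did not set Gm20186 apart. AI480526, which fell, lies 66.6% opposite 4932422M17Rik, with 27, 28 and 38 reads in si-Control and 16, 32 and 25 in si-Rbm22. Gm42418, which also fell, had more reads than its partner AY036118 in every library. In the 31 of the 54 genes with no opposite exon 14 rose and 15 fell, with a median of -0.26. In the 23 genes with any opposite bases 5 rose and 14 fell, with a median of -1.12. In the si-Control libraries, replicate 3 was the highest and replicate 2 the lowest in 23 of 31 lincRNA genes with 50% or more opposite and a mean of at least 1 CPM, and in 12 of 82 without overlap. The strand setting of the counting is not given in the sources used here, nor whether it and the strandedness of the libraries were the same in both groups. Without this, reads of a gene and of its partner on the other strand cannot be told apart. Lower levels of these genes in si-Rbm22 therefore cannot be told apart from a difference between the groups in how strand was handled.

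**Figure D3:**
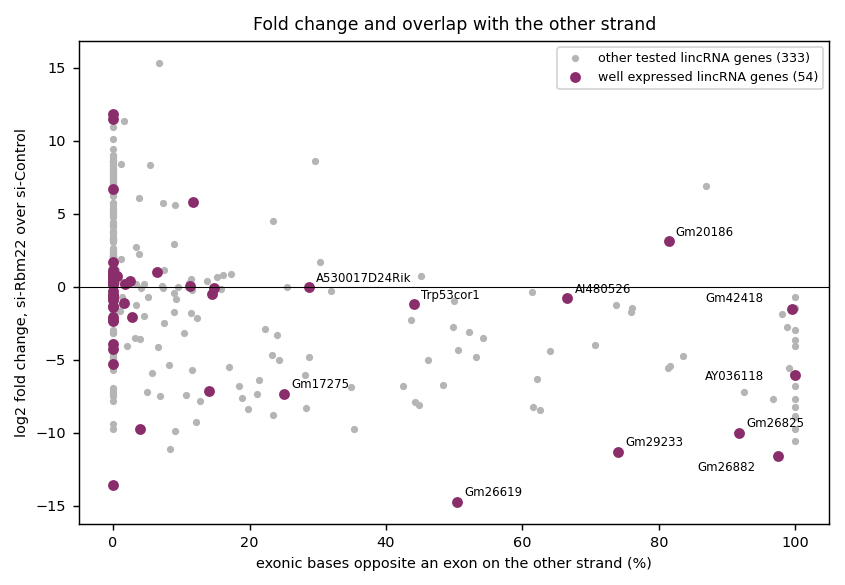
Fitted log2 fold change (si-Rbm22 over si-Control) of each tested lincRNA gene against the percentage of its exonic bases that lie opposite an exon on the other strand (purple, the 54 well expressed genes; grey, the other 333). Points on the right lie mostly below 0: of 43 genes with 50% or more opposite, 38 were called lower and 2 higher. Fitted values of genes without reads in a group depend on the prior count and are no bounds.

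Large falls were also found in genes with no exon opposite. Gm28653, which spans miR-206 and miR-133b, had 1370, 1755 and 1421 reads in si-Control (42.4 ± 5.42 CPM, SD, n = 3) and none in si-Rbm22. It was at least 1556-fold lower there, as a description, since it passed the threshold through si-Control alone. The same holds for the next pair of genes. The skeletal muscle precursor markers that went with it are given above, and their part in this difference was not tested. Of a list of 37 heart and muscle lincRNAs, on which Gm28653 is the only one of the 54, 10 were tested. Of these 3 rose and 6 fell, a share called that is near the 82% of all tested genes. Not all of them are of the GENCODE type lincRNA. Ppp1r1b and Hand2os1, which rose, and Mrln, Fendrr and 9530077C05Rik, which fell, are not, so the count is not of lincRNA genes alone. AI838599 (chr4:3242055-3258092) had 406, 470 and 406 reads against 3, 15 and 16, a fitted log2 fold change of -5.26. A330074K22Rik (chr8:120204434-120228230) had 392, 419 and 366 against 31, 14 and 19, a fitted log2 fold change of -4.23. No si-Rbm22 library of these genes reached a si-Control library. Less far apart, and tested, were 3300005D01Rik with 978, 953 and 909 reads against 170, 174 and 224, which fell by 2.36 (SE 0.11), and Gm26532, beside miR-24-2. The latter had 850, 809 and 726 against 193, 170 and 221 and fell by 2.07 (SE 0.12).

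The hosts of let-7 and of miR-1839 had small differences. 6720427I07Rik had 156, 186 and 170 reads in si-Control and 175, 193 and 234 in si-Rbm22, with overlapping groups and a log2 fold change of 0.19 (SE 0.17, edgeR adjusted p = 0.318). 2900076A07Rik had 173, 235 and 193 against 150, 128 and 165 and fell by 0.48 (SE 0.19, edgeR adjusted p = 0.0274). That call was lost without si-Control replicate 2 (edgeR adjusted p = 0.124), si-Control replicate 3 (0.0519) or si-Rbm22 replicate 2 (0.0715). As 14.5% of the exonic bases of 2900076A07Rik lie opposite another gene, its value is uncertain for that reason too. Epb41l4aos, which spans the annotated small nucleolar RNA Gm23639, had 301, 207 and 247 against 168, 150 and 175 reads and fell by 0.65 (SE 0.18).

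In 4 genes si-Control had few reads or none. They passed the threshold through si-Rbm22, so their values are a description. Gm37233, the host of miR-5103, had no read in si-Control and 489, 447 and 456 in si-Rbm22 (12.6 ± 0.633 CPM), at least 452-fold higher. Gm26795 (chr8:28593505-28595599) had no read against 379, 398 and 331, at least 360.1-fold higher. Gm5532 (chr1:155520173-155527143) had 13, 4 and 10 reads in si-Control and 929, 952 and 1000 in si-Rbm22, a fitted log2 fold change of 6.68. Mirt1 (chr19:53443230-53464796), known from the injured heart, had 6, 5 and 9 reads against 358, 443 and 353 (ratio 56.2, 95% counting interval 36.2 to 92.3). The nearest coding gene to Mirt1 by its start, the ERK phosphatase gene Dusp5, was 64313 bp away and rose by 2.13 (log2, SE 0.088). The summed level of 6 macrophage markers was 5.49 to 7.36 CPM in si-Control and 116 to 150 CPM in si-Rbm22, and that of 6 epicardial and mesothelial markers was 50 to 53.6 CPM and 1921 to 2130 CPM. Their part in these differences was not tested.

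The RefSeq promoter table (GRCm38.p6, 250 bases before to 50 after a start) held 24 promoters of 23 of the 54 genes. Motifs were searched on both strands: AP-1 (TGA, any 1 base, then TCA), the muscle E-box (CAGCTG), the GATA site (AGATAA), MEF2 (CTA, any 4 bases, then TAG) and the CArG box. AP-1 was found in 4 of the 24 promoters (16.7%, against 7.79% of all 32544), the E-box in 4 (16.7% against 16.4%) and GATA in 3 (12.5% against 11.2%). No promoter of these genes held a MEF2 or CArG match, which 3.7% and 1.64% of all promoters hold. Mirt1, a gene with few reads in si-Control, had a match to AP-1 and to the E-box, shown in capitals (chr19:53464747-53465046, minus strand). A330074K22Rik, a gene with few reads in si-Rbm22, had an AP-1 match (chr8:120228181-120228480, minus strand).
Mirt1 promoter: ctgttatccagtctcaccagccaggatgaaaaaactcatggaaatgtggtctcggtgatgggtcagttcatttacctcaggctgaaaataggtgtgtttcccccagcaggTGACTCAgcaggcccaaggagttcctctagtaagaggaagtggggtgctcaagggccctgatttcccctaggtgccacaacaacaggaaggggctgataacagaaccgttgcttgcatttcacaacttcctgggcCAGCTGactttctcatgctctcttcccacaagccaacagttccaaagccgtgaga
A330074K22Rik promoter: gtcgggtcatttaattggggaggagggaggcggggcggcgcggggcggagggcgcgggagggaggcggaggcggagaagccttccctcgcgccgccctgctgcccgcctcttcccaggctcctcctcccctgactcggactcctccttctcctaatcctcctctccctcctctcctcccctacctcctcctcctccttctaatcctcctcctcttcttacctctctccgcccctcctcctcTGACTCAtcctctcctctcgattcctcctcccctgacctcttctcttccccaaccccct
The promoters of Gm26795 and Gm5532, which like Mirt1 were higher in si-Rbm22, held none of the motifs searched. A match describes the letters in this window only.

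Of the genes that start head to head with a coding gene and overlap none, 6 rose and 2 fell. Over all tested lincRNA genes in such pairs with both genes called, 14 of 28 rose. In these 8 pairs the 2 starts lay within 1 kb on opposite strands, and both genes passed the test. The 2 genes changed in the same direction in 3 pairs and in opposite directions in 5, beside 18 and 10 of the 28 pairs. With 8 pairs this is a description and was not tested. A330074K22Rik, which starts 226 bp from Gse1 on the other strand, was left out of these pairs because it overlaps another coding gene, Gm20388. It was far lower in si-Rbm22, as described above, whereas Gse1 rose by 0.33 (SE 0.13, edgeR adjusted p = 0.0393). 2010320M18Rik, 102 bp from the start of Pik3r2 (a regulatory subunit of PI3 kinase), had 166, 140 and 171 reads in si-Control and 268, 278 and 336 in si-Rbm22. It rose by 0.84 on the log2 scale (SE 0.16), whereas Pik3r2 fell by 1.16 (SE 0.06). 5031425E22Rik, 172 bp from Kmt2e, a gene of chromatin regulation, had 403, 419 and 358 against 811, 716 and 739 reads and rose by 0.90 (SE 0.10), whereas Kmt2e fell by 0.55 (SE 0.054). 4632404H12Rik rose by 1.02 (SE 0.15) beside the ubiquitin conjugation gene Ube2q1, which fell by 0.36 (SE 0.062). The order was the other way round for C030037D09Rik, which fell by 0.87 (SE 0.18) 132 bp from Msi2, the gene of an RNA-binding protein that rose by 1.06 (SE 0.064), and for AI480526, which fell by 0.80 (SE 0.097) 527 bp from the histone methyltransferase gene Setd1b, which rose by 0.34 (SE 0.10). AI480526 has 66.6% of its exonic bases opposite another gene, so its value is uncertain.

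The pairs that rose together were Gm17501 with Ccn1, a secreted matrix protein (0.61 and 0.70 on the log2 scale), Gm5113 with Zfp146 (0.77 and 0.36), and Gm20186 with Lsm8, which encodes a protein of the U6 small nuclear RNA (3.13 and 0.22). Gm20186 (chr6:18845910-18848207) had 114, 95 and 97 reads in si-Control and 838, 1084 and 835 in si-Rbm22. Its rise came with a small one of Lsm8, from 28.4 ± 0.444 to 33 ± 2.27 CPM (SD, n = 3 each, SE 0.076, edgeR adjusted p = 0.0159). The value of Gm20186 is a description, since its total would have been under 1000 with both groups at the si-Control level. It is also uncertain, as 81.4% of its exonic bases lie opposite another gene.

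Of the 54 genes, 9 begin within 5 kb after a coding gene on its strand. In 6 of these pairs both genes were called, all 6 in the same direction. Over all tested lincRNA genes it was 14 of 16 pairs, which include these 6. With 6 pairs this is a description and was not tested. Gm28875 is 1 of the 16 genes that had to differ, and the choice by total reads also touches Lockd and Gm43597. Gm28875 (chr12:104925501-104926689), 3244 bp after Syne3, the gene of a nuclear envelope protein, had 430, 401 and 393 reads in si-Control and 30, 26 and 27 in si-Rbm22, a fitted log2 fold change of -3.91 that is a description for the reason above. Syne3 fell by 2.50 (SE 0.076). 4933404O12Rik, 3742 bp after Ift22, fell by 2.25 (SE 0.11) and Ift22 by 0.66 (SE 0.11). Gm43597, 1004 bp after N4bp2l2, had 102, 109 and 94 reads against 394, 357 and 273 and rose by 1.71 (SE 0.18), while N4bp2l2 rose by 0.46 (SE 0.069). A lincRNA gene at such a distance can hold reads that run on from the coding gene, and this was not tested. Gm37233 begins 3406 bp after Ccdc115, which did not pass the test (log2 fold change 0.13, edgeR adjusted p = 0.178). Over all 46 of the 54 genes whose nearest coding gene by start was tested, 33 pairs had both genes called, 19 in the same direction (57.6%, beside 64.7% of 204 pairs over all tested lincRNA genes).

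**Figure D4:**
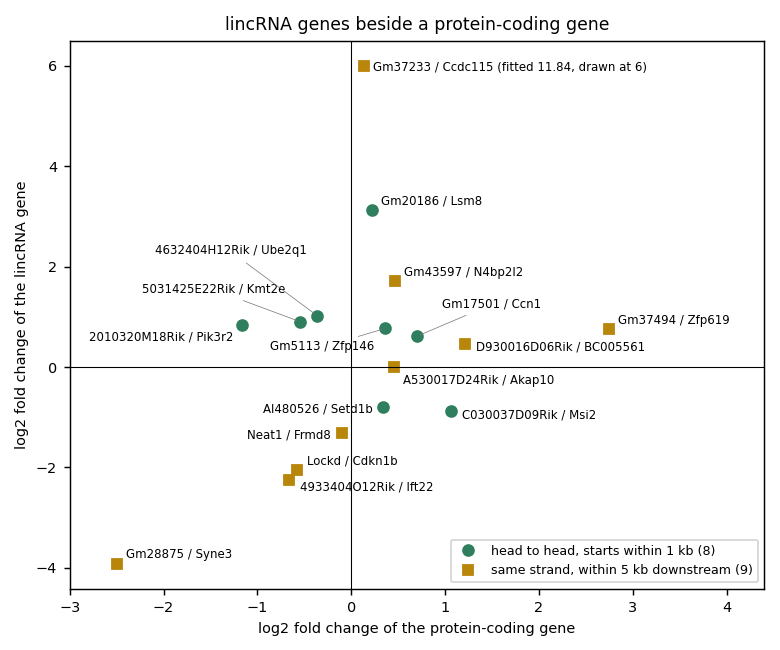
Log2 fold change (si-Rbm22 over si-Control) of lincRNA genes against that of the coding gene beside them. Shown are 8 pairs that start head to head (circles) and 9 genes that begin within 5 kb downstream on the same strand (squares). LincRNA genes that overlap a coding gene are left out, A330074K22Rik beside Gse1 among them. The squares with both genes called lie in the lower left or upper right; the circles lie in 3 quadrants. Gm37233, read in si-Rbm22 only, is drawn at 6.

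Gene structure set no clear order. Genes whose longest transcript is unspliced numbered 18, of which 7 rose and 11 fell (median -0.61). Of 29 genes with 1 to 2 introns 9 rose and 15 fell (median -0.48), and of 7 with 3 or more introns 3 rose and 3 fell (median -0.26). Across the 54 genes the Spearman correlation of the log2 fold change was 0.02 with intron number and 0.34 with exonic length; over all 387 tested lincRNA genes it was 0.12 and -0.03. The points are genes from the same 6 libraries and not independent. The Pumilio element TGTANATA, the binding motif of Pumilio proteins, which promote RNA decay, was found on the sense strand of the longest transcript in 20 of 54 genes (37%) and in 54 of the other 333 tested lincRNA genes (16.2%). Per kilobase this was 0.132 against 0.108 elements, and Neat1 held 4.

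Not every gene typed lincRNA by GENCODE is a noncoding gene in RefSeq. Of the 54, RefSeq lists 27 as lncRNA, 5 as protein-coding and 3 as pseudogenes, and 19 had no entry under their symbol. Those it calls coding had small differences or none that passed. 1810058I24Rik, which encodes the mitochondrial micropeptide Stmp1, had 3397, 3498 and 3274 reads in si-Control and 3919, 3863 and 4099 in si-Rbm22, a rise of 0.19 on the log2 scale (SE 0.053, edgeR adjusted p = 0.00488). D930016D06Rik (Thoc2l in RefSeq) rose by 0.47 (SE 0.11), Gm37494 by 0.75 (SE 0.078) and Zfp469 by 0.28 (SE 0.10, edgeR adjusted p = 0.0207). The call of Zfp469 was lost without si-Control replicate 2 (edgeR adjusted p = 0.057), si-Control replicate 3 (0.124) or si-Rbm22 replicate 1 (0.0778). Tmem250-ps had 1854, 1953 and 1755 reads against 1901, 1803 and 1749 and did not pass (log2 fold change -0.07, SE 0.066, edgeR adjusted p = 0.361).

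Dubr (Dum), an RNA known to promote the differentiation of myoblasts, had 1236, 1335 and 1259 reads in si-Control and 1902, 1835 and 1396 in si-Rbm22. Its groups did not overlap, although si-Rbm22 replicate 3 lay near si-Control, and it rose by 0.39 (SE 0.11, edgeR adjusted p = 0.00837). AU020206 fell by 0.62 (SE 0.084), Gm21781 fell by 0.59 (SE 0.14), 4632415L05Rik fell by 0.59 (SE 0.086) and Gm10076 fell by 1.39 (SE 0.18). Gm20342 rose by 0.69 (SE 0.18). The other genes that did not pass were 1300002E11Rik with 198, 240 and 181 reads in si-Control and 176, 158 and 197 in si-Rbm22 (log2 fold change -0.26, SE 0.17), A530017D24Rik with 230, 272 and 192 against 232, 196 and 281 (-0.01, SE 0.17) and BC002059 with 146, 163 and 187 against 226, 188 and 164 (0.18, SE 0.19). A p that misses the threshold does not show that these genes were alike in both groups. The value of A530017D24Rik is also uncertain, as 28.7% of its exonic bases lie opposite another gene. The coding gene that overlaps 1300002E11Rik on the same strand, Map3k13, had 14, 11 and 3 reads against 114, 203 and 112 and rose by 3.89 (SE 0.44).

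By position the 54 genes were spread over 19 autosomes, with 7 on chromosome 5, 6 on chromosome 17 and 5 each on chromosomes 1, 7 and 8. Of the lists used to place them, that of 28 microRNA host lincRNAs had 6 tested members, of which 3 rose and 2 fell. That of 27 developmental and Hox-region lincRNAs had 3, of which 1 rose and 2 fell. The former held Mirt1 alone of the 54, although no annotated microRNA lies inside Mirt1, and it left out the hosts whose microRNAs are printed above. The latter held none. Among the tested genes, Mir99ahg and Dleu2 of the former and Foxf1 of the latter are not of the GENCODE type lincRNA. The counts of both lists are therefore not of lincRNA genes alone. The genes whose log2 CPM followed Neat1 most closely over the 6 libraries were Gm28875 (Pearson r = 0.999), Gm28653 (0.999) and 4933404O12Rik (0.998). Those most like Malat1 were Cyrano (0.989), Gm43597 (0.989) and Mirt1 (0.983). These values mostly restate the step between the 2 groups, which all of these genes share.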

How the data were processed

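RNA sequencing libraries were made from total RNA (TRIzol) with the VAHTS Universal V6 kit, per the labels' protocols. The authors deposited whole-number read counts per gene for the 6 libraries, with column totals from 34269042 to 37344860, which allow a level down to 3 counts over a group (0.028 CPM in si-Control, 0.0272 CPM in si-Rbm22) to be seen. Tools named in the submitters' processing notes are HISAT2, HTSeq, fastp and DESeq2, with GRCm38 as the build. Their versions and roles, the annotation release and the strand setting were not given in the sources used here. Of 18951 identifiers 18868 matched GENCODE M21 (GRCm38), from which symbols, gene types, coordinates and transcripts were taken; microRNAs and promoters are from RefSeq (GRCm38.p6).

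The counts were tested with edgeR 4.0.16 in R 4.3.3 (quasi-likelihood, TMM scaling, filterByExpr, robust, group as the only term), fitted on all genes with Benjamini-Hochberg adjustment over the 14621 tested. Levels are TMM-scaled CPM, and the SE was derived from F (size of the log2 fold change over the root of F). Counting intervals and floors leave out all other error, and reads that carry no molecular identifier do not each stand for a molecule. No pair of replicates agreed within sampling noise (chi-square per degree of freedom 4.52 to 7.05 in si-Control, 10.5 to 30.94 in si-Rbm22). The procedure was tested on simulated data.

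The genes and the lists were chosen with earlier results of these data known. Genes were named where they stand on a list, are among the 8 of highest level, the 10 largest rises or falls or the 5 most abundant that did not pass, lie at the threshold, or were read in 1 group only. The others were named for their neighbour or class after their values were seen. Alternatives were RLE size factors, DESeq2 1.42.0, voom in limma 3.58.1, other filters on low counts, other thresholds of total reads, each library left out, and the replicate number as a block. The further 3 settings, the genes without opposite-strand overlap among them, were added after the data were seen, and so was the limit of 100 reads in the lower group.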

Additional observations from a re-analysis of the deposited data

How the results depend on the processing

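Of the 54 lincRNA genes, 19 rose and 29 fell with TMM or RLE scaling, without a filter on low counts, with DESeq2 and with limma-voom. Leaving out 1 library at a time gave 18 to 19 higher and 28 to 29 lower. Other settings moved a count by over 1.5 times because they tested other genes or asked for more: 12 rose of the 34 that passed a filter of 10 CPM in 3 libraries, 40 rose and 51 fell of 107 genes at a threshold of 500 reads, 11 rose and 17 fell of 29 genes at 2000 reads, and 9 rose at least 2-fold. Without the genes that share exonic bases with the other strand, which was added after seeing the data, 14 rose and 15 fell of 31.

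Of 416 values of the 36 genes named by rule under the alternatives, 407 kept their direction and their side of the threshold. The log2 fold change turned in 6, all in genes that never passed the test, and the cause was not tested. Leaving out libraries in turn, A530017D24Rik ranged from -0.14 to 0.097. For 5430416N02Rik it was -0.036 without si-Control replicate 1 and -0.031 without si-Rbm22 replicate 2. For A530017D24Rik it was 0.0080 with RLE size factors, 0.0079 with DESeq2, 0.097 without si-Control replicate 2 and 0.093 without si-Rbm22 replicate 2. The 3 lost calls were those of 2900076A07Rik; outside the 36, Zfp469 also lost its call, as given above.

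The replicate numbers showed no pairing, since the deviations of same-numbered libraries correlated at -0.016, 0.0069 and 0.0084 over 14621 genes. With the replicate number as a block 19 of the 54 genes rose and 29 fell, and over all genes 6264 rose and 5681 fell, against 6299 and 5684 without it. Depth limits the genes read in 1 group only, whose folds are bounds set by 3 counts.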
